A study of Homo sapiens with 4 samples.

Results

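The MYC, MAX and MLX network is a set of paired transcription factors, and 10 of its genes were read from a table of 16376 genes of RNA-seq values from HCT116, a line of human colon cancer cells. The 10 genes were MYC, MAX, MXD1, MXD3, MXD4, MXI1, MNT, MGA, MLX and MLXIP, chosen by symbol with earlier results of these data known. All 10 were listed with a mean above 10. The samples compared were untreated HCT116 cells (Control, 2 samples) and HCT116 cells given hydrogen peroxide (H2O2, 2 samples), an oxidant that enters cells. No dose or length of exposure is labelled, nor do the labels say whether the samples came from separate cultures, so a p-value covers only the spread between these samples, which may be technical. HCT116 is 1 cell line, so the values describe that line alone.

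Proteins of this network bind DNA as pairs through a helix-loop-helix and leucine zipper, and most of the pairs recognise the E-box, CACGTG. MYC paired with MAX activates genes of growth, nucleotide synthesis and ribosome production, and MYC is a main target of Wnt signalling in the colon. The MXD proteins and MNT also pair with MAX and bring in the SIN3 corepressor, so they compete with MYC for MAX and for DNA. MLX forms a parallel arm with MLXIP (MondoA) or MLXIPL (ChREBP), which sense glucose phosphates.

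What was deposited is the mean normalized count of each group (reads divided by a library's size factor) and the authors' test of each gene. The whole reads of each library behind those means were recovered, and totalled 6858809 to 7365032 per library over the listed genes. Libraries are called deeper or shallower by that total, because the table carries no replicate numbers, and pairs of values below give the deeper library first. Its header names the groups only as A and B. Control was read as A because the name of the table puts it first, and all directions depend on that reading. Of 10 epithelial markers, 9 were listed and their summed normalized counts were 8725 and 10393 in Control and 11168 and 10648 with H2O2. ELF3, an epithelial transcription factor, was called higher, at 1.61 times its Control mean by the authors' deposited table (limma, adjusted p = 0.00602), and the other 8 were not called. ELF3 is an uncertain value, since 19.7% of the 75-base words of its longest transcript also occur in other genes' transcripts. Of 10 leukocyte markers 4 were listed, summing to 22.05 and 37.0 in Control and 79.2 and 54.1 with H2O2, and their part in the results was not tested. PTPRC and CD3E were not among the 4. Among the 4, NKG7 (3 and 4 reads in Control, 22 and 17 with H2O2) and CD14 (5 and 3 reads in Control, 19 and 10 with H2O2) were higher at 5.57 and 3.65 times their Control means by the authors' deposited table, and of the pair NKG7 passed in limma (adjusted p = 0.0119, against 0.0794 for CD14). Of 9 fibroblast markers 3 were listed, summing to 1017 and 933 in Control and 813 and 754 with H2O2. COL1A1, a fibrillar collagen chain, was the 1 called lower, at 0.734 times its Control mean by the authors' deposited table (limma, adjusted p = 0.0343), and the part of these markers in the results was not tested. The 1 listed endothelial marker gave 6.16 to 13.5 and the 1 listed erythroid marker 4.79 to 10.3. Calls made up 11.1% of the listed epithelial, 50% of the leukocyte and 33.3% of the fibroblast markers, against 7.19% of all listed genes by the authors' deposited table.

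With H2O2, MXD1 was higher and MNT, MGA and MLXIP were lower by the authors' deposited table at an adjusted p under 0.05, and the other 6 genes did not pass. MXD1 stood at 1.59 times its Control mean, MNT at 0.687, MLXIP at 0.690 and MGA at 0.738 by the authors' deposited table. These 4 are 40% of the 10 genes, against 7.19% of all listed genes called by the authors' deposited table, 2.58% higher and 4.62% lower. The median log2 fold change of the 10 genes was -0.068 and that of all listed genes 0.00029 by the authors' deposited table. limma, a linear model of log2(normalized count + 1) fitted over all genes, called 2 of the 10, MLXIP and MNT, against 4.1% of all genes. With either Control library left out limma called 4 of the 10, against 8.52% of all genes without the deeper and 22.2% without the shallower. With an H2O2 library left out it called none, against 1.73% of all genes without the deeper and 3.13% without the shallower, and 3 and 4 of the 10 then had an unadjusted p under 0.05. In bulk RNA, fewer cells with a transcript and less of it per cell cannot be told apart.

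**Figure D1:**
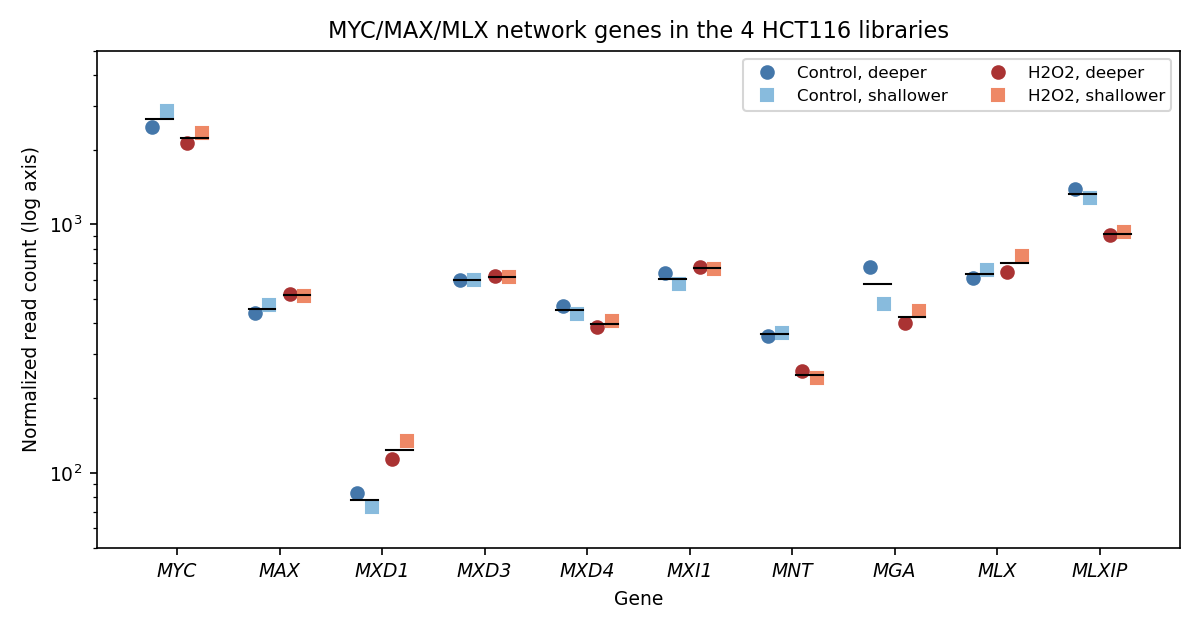
Normalized read counts (log axis) of the 10 network genes in each of the 4 libraries, with black lines at the group means. MYC lies highest and MXD1 lowest, and MLX is the gene whose Control and H2O2 libraries overlap.

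MYC, the activator of the network, had normalized counts of 2461 and 2855 in Control and 2124 and 2327 with H2O2. Both H2O2 libraries were below both Control libraries, and the Control libraries differed more from each other than the H2O2 libraries did. Its log2 fold change was -0.25 ± 0.11 (SE, 2 libraries per group, limma), with an adjusted p of 0.230 in limma and 0.254 by the authors' deposited table. It passed in 2 of the 10 limma fits, without the deeper Control library (-0.36, adjusted p = 6.05e-04) and after a trend with transcript length was removed (-0.35, adjusted p = 0.0422), and over all 10 the adjusted p ran up to 0.836. MYCL, a paralogue, had means of 129.8 and 143.1 and did not pass by the authors' deposited table (adjusted p = 0.771), and MYCN is not analysed here.

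MAX, the shared partner of MYC, the MXD proteins, MNT and MGA, had normalized counts of 439.0 and 473 in Control and 526 and 517 with H2O2. The groups did not overlap, and the log2 fold change was 0.19 ± 0.12 (SE, limma, adjusted p = 0.364). Between the groups, 9 of the 10 genes did not overlap, which was also true of 51.9% of all listed genes, so a gap between 2 pairs of libraries was common in this table.

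Among the MAX-binding repressors, MXD1 and MNT moved in opposite directions. MXD1, a repressor that rises in many cells as they differentiate, had 87 and 71 reads in Control and 118 and 129 with H2O2, or normalized counts of 83.4 and 72.9 against 113.9 and 134.2. Both H2O2 libraries were above both Control libraries. The log2 fold change was 0.66 ± 0.19 (SE, limma), and MXD1 passed by the authors' deposited table (adjusted p = 0.0317) but not in limma (0.0625). Over the 10 limma fits its log2 fold change ran from 0.54 to 0.78 and its adjusted p from 0.01002 to 0.379, and it passed in 3. MXD1 shares 3.73% of its exonic bases with SNRNP27 on the same strand, and SNRNP27 did not pass by the authors' deposited table (adjusted p = 0.582).

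MNT, the repressor present in most dividing cells alongside MYC, had normalized counts of 357 and 366 in Control and 257 and 240.3 with H2O2. The libraries of each group lay close together and the groups were well apart. MNT fell by 0.54 ± 0.13 on the log2 scale (SE, limma, adjusted p = 0.0282), and its adjusted p by the authors' deposited table was 0.0110. It missed the threshold in limma when the deeper H2O2 library (adjusted p = 0.138) or the shallower one (0.227) was left out and when a trend with transcript length was removed (-0.42, 0.0542), and over the 10 fits its adjusted p ran from 0.00253 to 0.227. The exons of MNT overlap an antisense transcript, AC006435.1, over 12.2% of their bases, and how the counting treated strand is not given in the sources used here, so reads of the pair cannot be told apart.

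MXD3, MXD4 and MXI1, the other 3 MXD genes listed, did not pass. MXD3, which is expressed in S phase, had normalized counts of 597 and 595 in Control and 619.7 and 613 with H2O2 (log2 fold change 0.047 ± 0.11, SE, limma, adjusted p = 0.844). It is an uncertain value, because 17.97% of its exonic bases overlap RAB24 and 22.5% overlap PRELID1. MXD4 had 468 and 435 in Control and 385 and 409.8 with H2O2 (-0.18 ± 0.12, limma, adjusted p = 0.409). MXI1, also called MXD2, had 637 and 575 in Control and 677 and 664 with H2O2 (0.15 ± 0.11, limma, adjusted p = 0.490). None of these 3 was called in any of the 10 limma fits, and these misses do not show that the genes held still.

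Levels of different genes can be set side by side only per length, here as normalized counts per kilobase of exonic sequence. In Control MYC stood highest at a mean of 886 per kb, followed by MLX at 148, MXI1 at 132, MXD3 at 116, MAX at 103 and MLXIP at 95.8. MXD4 (64.0), MNT (41.4), MGA (32.7) and MXD1 (12.3) were lower. The 2 Control libraries of neighbours in this order did not overlap, except those of MAX (99.1 and 106.8) and MLXIP (99.6 and 91.9). With H2O2 MYC was at 742 per kb and MXD1 remained lowest at 19.5. With the longest transcript in place of all exonic bases, the order of the genes in Control changed for MXD3, which then stood next to MYC at 262 per kb, and MLXIP, which passed MAX.

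Of the summed level per kb of MXD1, MXD3, MXD4, MXI1 and MNT, MXI1 made up 36.9% and 35.1% in Control and 39.8% and 39.0% with H2O2. MNT made up 10.9% and 11.8% in Control and 7.97% and 7.45% with H2O2. MXD1 made up 3.51% and 3.23% in Control and 4.86% and 5.72% with H2O2. The sum itself was 374 and 355 per kb in Control and 369.0 and 369.6 with H2O2, so the makeup of the 5 mRNAs differed while their sum lay within the range of the Control libraries. These shares are a description with no test, and no length trend was removed from them. MNT (8.73 kb) is the longest of the 5 genes. MXD3, an uncertain value, made up 30.9% and 32.5% of the sum in Control and 32.6% and 32.2% with H2O2.

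**Figure D2:**
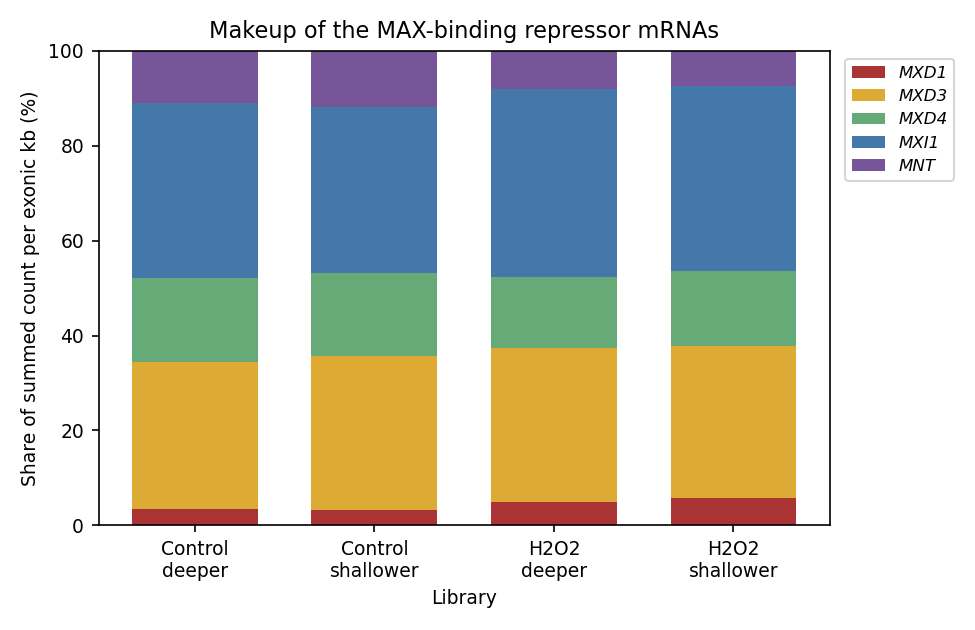
Stacked bars give the share (%) of each of 5 MAX-binding repressor genes in their summed normalized count per exonic kb, for each library. The MNT share is smaller and the MXD1 share larger in both H2O2 libraries than in both Control libraries.

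The start-site windows of these genes were searched for the E-box itself, CACGTG, which reads the same on both strands. RefSeq gives a window of 300 bases (250 before and 50 after a start, build GRCh38.p14) for 14 starts of 9 of the genes, and that of MYC was not searched. CACGTG occurred in 3 of the 14 windows, in MNT, MXD4 and MLX, against 7.26% of 35116 windows of the same length. It lay at position -193 from the start in MNT, -238 in MXD4 and -50 in MLX. The windows of MNT, which was called lower, and of MXD4 and MLX, which were not called, are shown with MXD1, the gene called higher, and with ARRDC4, a target of the MLX arm whose E-box lay at -210. Capitals mark CACGTG.
MNT (chr17:2401011-2401310, minus strand): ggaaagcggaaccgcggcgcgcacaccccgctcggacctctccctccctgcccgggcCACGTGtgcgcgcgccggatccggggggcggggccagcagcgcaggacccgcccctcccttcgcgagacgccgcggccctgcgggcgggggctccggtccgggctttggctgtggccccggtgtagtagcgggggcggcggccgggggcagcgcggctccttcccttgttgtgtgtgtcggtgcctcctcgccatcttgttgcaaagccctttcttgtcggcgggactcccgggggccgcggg
MXD4 (chr4:2262060-2262359, minus strand): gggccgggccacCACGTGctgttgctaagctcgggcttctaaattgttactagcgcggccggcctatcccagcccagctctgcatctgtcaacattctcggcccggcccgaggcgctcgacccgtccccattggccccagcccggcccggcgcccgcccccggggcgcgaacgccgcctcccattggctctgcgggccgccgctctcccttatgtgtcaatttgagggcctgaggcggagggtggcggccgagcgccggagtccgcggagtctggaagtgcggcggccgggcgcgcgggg
MLX (chr17:42566850-42567149, plus strand): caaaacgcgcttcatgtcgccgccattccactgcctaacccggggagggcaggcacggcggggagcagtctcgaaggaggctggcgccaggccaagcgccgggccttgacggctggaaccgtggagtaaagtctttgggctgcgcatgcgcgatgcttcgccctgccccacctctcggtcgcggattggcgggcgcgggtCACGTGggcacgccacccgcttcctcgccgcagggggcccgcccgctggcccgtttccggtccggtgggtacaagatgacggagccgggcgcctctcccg
MXD1 (chr2:69914859-69915158, plus strand): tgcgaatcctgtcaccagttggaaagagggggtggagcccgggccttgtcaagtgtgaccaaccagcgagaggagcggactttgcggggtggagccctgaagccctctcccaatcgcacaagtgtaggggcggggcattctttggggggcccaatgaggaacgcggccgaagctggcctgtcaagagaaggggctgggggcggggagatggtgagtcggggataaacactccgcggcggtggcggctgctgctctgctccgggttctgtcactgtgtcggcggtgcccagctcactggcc
ARRDC4 (chr15:97960453-97960752, plus strand): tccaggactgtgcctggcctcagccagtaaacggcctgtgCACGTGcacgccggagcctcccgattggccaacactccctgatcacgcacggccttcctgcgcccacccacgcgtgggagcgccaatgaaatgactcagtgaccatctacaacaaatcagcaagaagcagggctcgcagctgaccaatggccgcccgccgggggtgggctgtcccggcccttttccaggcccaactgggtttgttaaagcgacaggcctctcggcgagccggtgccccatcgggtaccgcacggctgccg
MXD1, MLXIP, MAX, MGA, MXD3 and MXI1 had no CACGTG in their windows, which says only that these letters are not there. Of the 3 genes with the letters, 1 was called and 2 were not.

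MGA, a very large protein that pairs with MAX and anchors the PRC1.6 polycomb complex, had normalized counts of 674 and 479 in Control and 403 and 448 with H2O2. Both H2O2 libraries were below both Control libraries, but the Control libraries lay further apart than the shallower Control library lay from either H2O2 library. MGA passed by the authors' deposited table (adjusted p = 0.0255) and did not in limma (-0.42 ± 0.15, SE, adjusted p = 0.128). Without the deeper Control library its log2 fold change was -0.17 (limma, adjusted p = 0.431), and without the shallower one -0.66 (limma, 5.90e-07). Its adjusted p over the 10 limma fits ran up to 0.584, and the fit without the shallower Control library was the 1 that called it. The 11 listed partners of MGA in PRC1.6, among them E2F6, L3MBTL2 and PCGF6, held no call by the authors' deposited table or in limma. Of the 11, 4 had an unadjusted p under 0.05 in each, against 19.6% of all listed genes by the authors' deposited table and 20.2% in limma. limma calls came to 4 of the 11 with the deeper Control library left out, against 8.52% of all genes, and to 3 with the shallower one left out, against 22.2%.

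In the MLX arm, MLXIP and MLXIPL were lower and MLX was not called. MLX, the partner that both glucose sensors need, had normalized counts of 611 and 653 in Control and 645 and 749 with H2O2. Its groups overlapped, and its log2 fold change was 0.14 ± 0.12 (SE, limma, adjusted p = 0.535). MLX is an uncertain value, because 18.1% of its exonic bases overlap PSMC3IP on the opposite strand.

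MLXIP, which encodes MondoA, had normalized counts of 1385 and 1278 in Control and 904 and 933 with H2O2. Both groups were tight and far apart. MLXIP fell by 0.53 ± 0.11 on the log2 scale (SE, limma, adjusted p = 0.0109), and it had the smallest adjusted p of the 10 genes by the authors' deposited table (0.00134). Leaving out the deeper H2O2 library gave an adjusted p of 0.197 in limma and leaving out the shallower gave 0.0931, the removal of the length trend gave 0.0576, and over the 10 fits its adjusted p ran from 3.99e-08 to 0.197. MLXIPL, which encodes ChREBP and is no member of the 10, stood at 0.567 times its Control mean by the authors' deposited table (1005 to 569, adjusted p = 2.77e-07). It fell by 0.82 ± 0.12 on the log2 scale (SE, limma, adjusted p = 0.00180) and was called in all 10 limma fits. Per exonic kb, MLXIPL stood at 209 in Control and 118 with H2O2, MLXIP at 95.8 and 66.04, and MLX at 148 and 164.

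**Figure D3:**
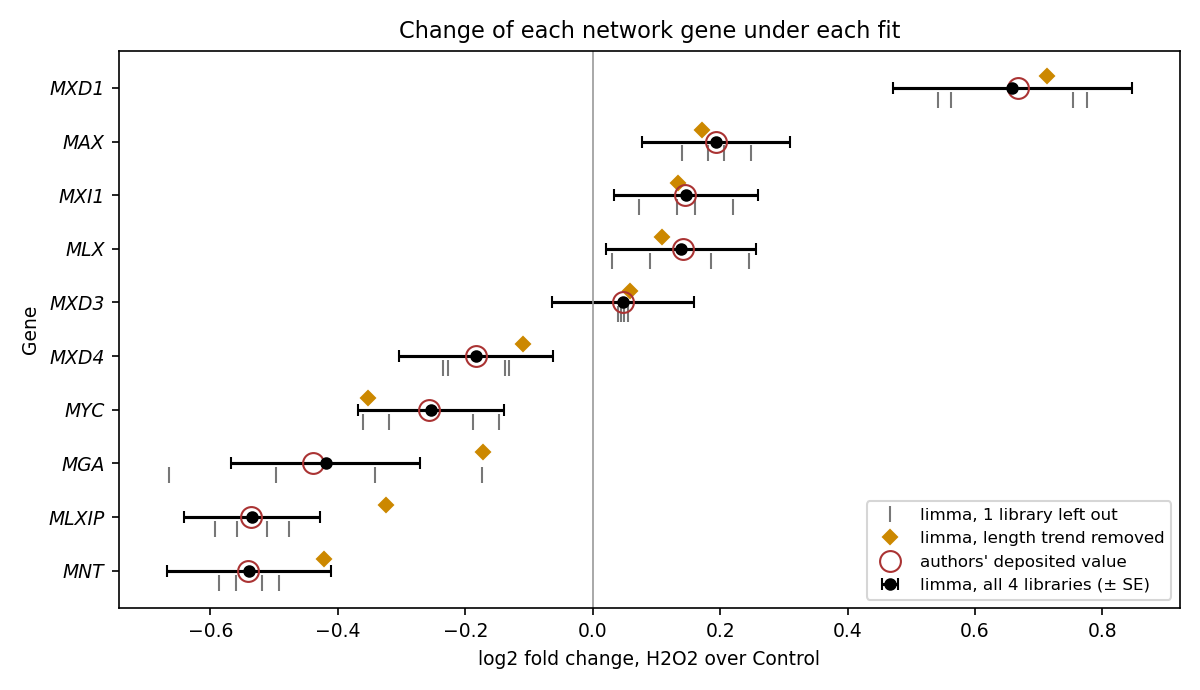
Log2 fold change of each gene, H2O2 over Control: red circles are the authors' deposited values, black points limma with its SE, grey ticks limma with 1 library left out, and yellow diamonds limma after removal of the length trend. MGA spreads from -0.66 to -0.17 and MNT from -0.59 to -0.42.

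Fold changes in this table moved with transcript length. Among 13940 genes with a matched exonic length, the median log2 difference, H2O2 minus Control, was 0.15 in the shortest 2788 genes (up to 2751 bases) and -0.17 in the longest 2788 (8140 bases or more). Between the 2 Control libraries the same medians, deeper minus shallower, were -0.14 and 0.16. MGA (17.7 kb), MLXIP (13.9 kb) and MNT (8.73 kb), the 3 genes called lower, were the longest of the 10, and MYC (3.001 kb) was the shortest. With a length trend removed within each library, MNT and MLXIP missed the threshold (-0.42, adjusted p = 0.0542, and -0.32, adjusted p = 0.0576, limma) and MGA stood at -0.17 (limma, adjusted p = 0.431). MXD1 (6.35 kb) and MYC then passed (0.71, adjusted p = 0.0249, and -0.35, adjusted p = 0.0422, limma), so that 2 of the 10 were called, against 5.12% of the genes with a matched length. MLXIPL (4.82 kb) was at -0.82 with and without the trend.

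**Figure D4:**
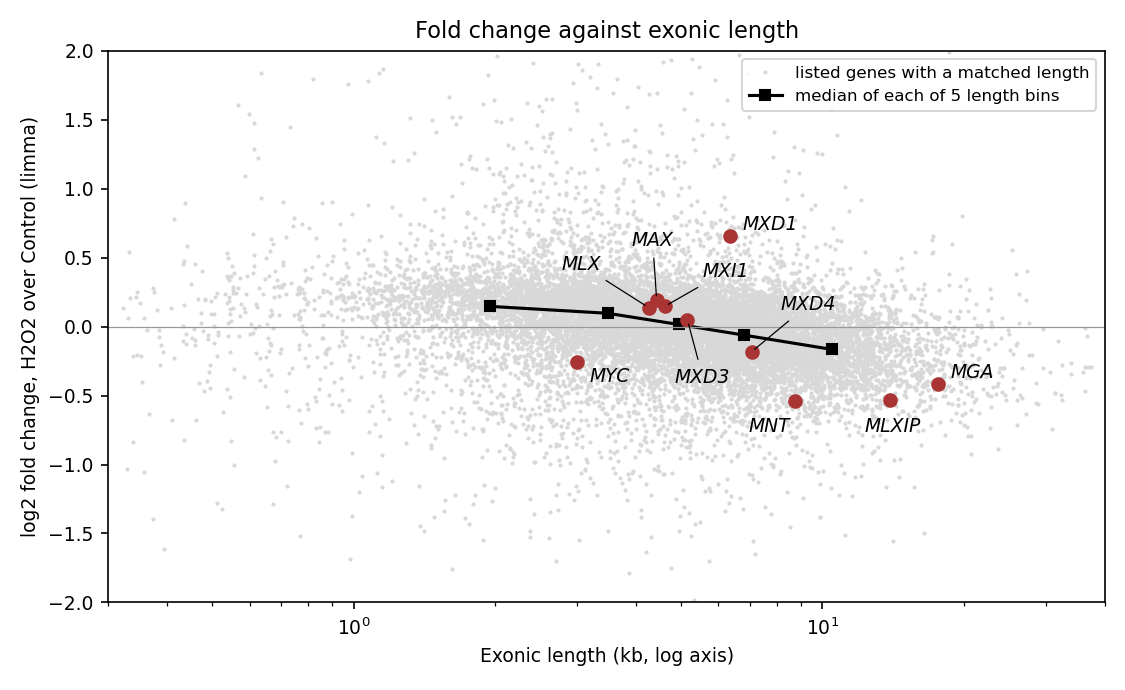
Log2 fold change (limma, H2O2 over Control) against exonic length (kb, log axis) for 13940 genes in grey, of which 13823 fall inside the axes, with black squares at the medians of 5 equal bins by length and the 10 network genes in red. MGA, MLXIP and MNT lie at the long end, where the medians are below 0, and MXD1 lies above 0.5.

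Calls among proteins that work with the network were counted against the 7.19% of all listed genes called by the authors' deposited table. The partner and target lists were chosen with earlier results of these data known, so a share above 7.19% does not test a list. Of 18 corepressor genes of the SIN3 and NCOR complexes, 1 was higher, 1 lower and 16 not called by the authors' deposited table (11.1% called, median log2 fold change 0.0095). limma called more of the 18 with a Control library left out and fewer with an H2O2 library left out, as over the whole table. ING1, a reader of methylated histone H3 in the SIN3 complex, stood at 1.66 times its Control mean by the authors' deposited table and passed in limma (adjusted p = 0.00330). Of 16 MYC cofactors 1 was lower and 15 were not called by the authors' deposited table (6.25% called, median -0.14). limma called none of the 16, with 5 at an unadjusted p under 0.05, against 20.2% of all genes. With a Control library left out it called more of the 16, as it did of all genes. The 1 called lower was BPTF, a chromatin remodelling subunit, at 0.687 times its Control mean by the authors' deposited table (adjusted p = 0.00136), and it did not pass in limma (0.0822).

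Of 20 genes that act on MYC protein stability, 2 were lower, none higher and 18 not called by the authors' deposited table (10% called, against 7.19% of all listed genes, median -0.0018). At an unadjusted p under 0.05 were 8 of the 20, against 19.6% of all listed genes by the authors' deposited table. limma likewise called 2 lower, against 4.1% of all genes called in either direction. It called more of the 20 with a Control library left out and fewer without the deeper H2O2 library, as it did of all genes. FBXW7, the ubiquitin ligase subunit that marks MYC for degradation, stood at 0.664 times its Control mean and USP36, a nucleolar deubiquitinase that acts on MYC, at 0.635 by the authors' deposited table. FBXW7 had an adjusted p of 0.0274 in limma, or 0.0641 with the length trend removed, and USP36 had 0.00743 and 0.00509. Of 8 listed E-box factors outside the network, TFAP4, a MYC target, was higher at 1.42 and SREBF1, a regulator of lipid synthesis, was lower at 0.769 times its Control mean by the authors' deposited table. The other 6 were not called there, so that 25% of the 8 were called, in a list likewise chosen with earlier results known. Neither TFAP4 nor SREBF1 passed in limma (adjusted p = 0.0629 and 0.0603), but TFAP4 passed with the length trend removed (0.59, limma, adjusted p = 0.0128). With a Control library left out limma called more of the 8, and more of all genes, than with all libraries kept.

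Activated targets of MYC were read in 2 lists. Of 30 nucleolar and ribosome-making MYC targets, none passed in limma or by the authors' deposited table (median 0.084). At an unadjusted p under 0.05 was 1 of the 30 by the authors' deposited table, against 19.6% of all listed genes. In limma 2 of the 30 were, against 20.2% of all genes. Without the shallower Control library limma called 6 of the 30, all higher, against 22.2% of all genes. NCL and NPM1, abundant nucleolar proteins, stood at 1.10 and 1.26 times their Control means by the authors' deposited table (adjusted p = 0.736 and 0.110). Of 41 metabolic and growth targets, 1 was higher, 2 lower and 38 not called by the authors' deposited table (median 0.17). The 3 calls are 7.32% of the 41, near the 7.19% of all listed genes. With a Control library left out limma called more of the 41 than with all libraries kept, and with an H2O2 library left out fewer, as over the whole table. HSPD1, a mitochondrial chaperonin, was at 1.34, TERT, the catalytic subunit of telomerase, at 0.557 and PTMA, a nuclear prothymosin, at 0.518 times their Control means by the authors' deposited table. PTMA and HSPD1 are uncertain values, since 10.6% and 10.1% of the 75-base words of their longest transcripts also occur in other genes' transcripts. ODC1, the first enzyme of polyamine synthesis and a direct MYC target, stood at 1.26 by the authors' deposited table (adjusted p = 0.111).

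Genes that MYC is known to repress together with ZBTB17 (MIZ1) held 7 calls, 43.75% of the 16 listed, against 7.19% of all listed genes called by the authors' deposited table. Because the list was chosen with earlier results of these data known, that excess is a description and no test of the list. Of the 16, 6 were higher, 1 lower and 9 not called by the authors' deposited table (median 0.24), and limma called 4 higher and 1 lower. With an H2O2 library left out limma called fewer of the 16, and with a Control library left out more, as it did of all genes. GADD45B, a stress-induced growth arrest gene, rose from a mean of 201 to 501 by the authors' deposited table (limma, adjusted p = 6.34e-05). GADD45A, of the same family, was at 1.68 times its Control mean by the authors' deposited table. CDKN1A, which encodes the cell cycle inhibitor p21, was at 1.497 and CDKN2C, another such inhibitor, at 1.49 by the authors' deposited table. CDKN1A had normalized counts of 3783 and 6506 in Control and 7115 and 8287 with H2O2, so its Control libraries differed by 0.78 on the log2 scale, more than the 0.58 between the group means by the authors' deposited table. It did not pass in limma (adjusted p = 0.0717), and with the length trend removed it did (0.0496). TGFBR2, a receptor for TGF-beta, was the 1 lower gene, at 0.666 by the authors' deposited table. CDKN2B, the best known of the MYC and ZBTB17 targets, was at 1.22 and not called there (adjusted p = 0.457). GADD45A and CDKN1A are also targets of p53, and other factors act on most genes of this list.

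Among glucose-responsive targets of MLX with its partners, 9 of 13 genes were listed, and 2 were higher, 1 lower and 6 not called by the authors' deposited table (median 0.20). The 3 calls are 33.3% of the 9, against 7.19% of all listed genes, but the list was chosen with earlier results of these data known. With a Control library left out limma called more of the 9, and more of all genes, than with all libraries kept. Without the deeper H2O2 library it called fewer of both. ARRDC4, an alpha-arrestin that restrains glucose uptake, had 285 and 299 reads in Control and 184 and 209 with H2O2. It fell by 0.56 ± 0.15 on the log2 scale (SE, limma, adjusted p = 0.0477) but missed the threshold when the deeper H2O2 library was left out (-0.41, limma, adjusted p = 0.5003). KLF10, a Kruppel-like factor, and ARRDC3, a related arrestin, were at 1.53 and 1.56 times their Control means by the authors' deposited table. ARRDC3 did not pass in limma (adjusted p = 0.0585). HK2 and PFKFB3, enzymes at the entry to glycolysis, were not called by the authors' deposited table (adjusted p = 0.125 and 0.542). TXNIP, the best known target of MLXIP, is not analysed here.

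**Figure D5:**
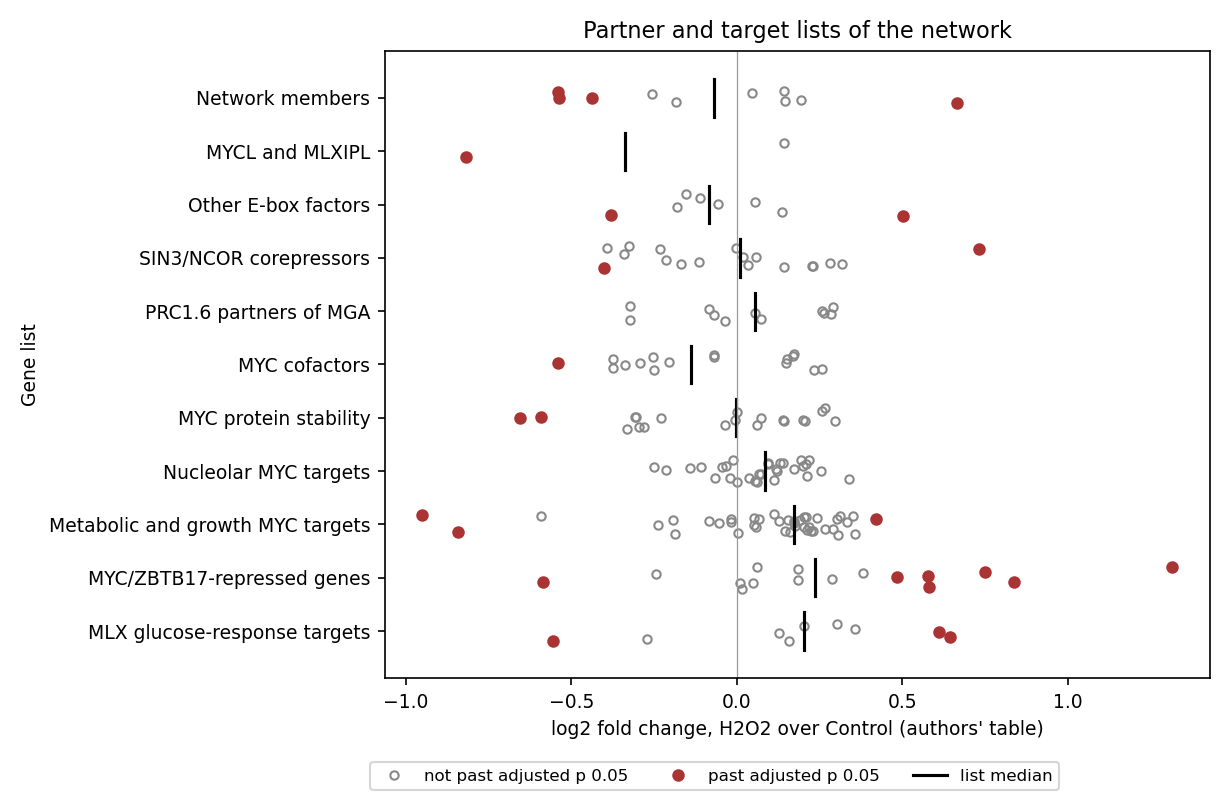
Log2 fold change (authors' deposited table, H2O2 over Control) of every listed gene in each partner and target list, filled red where the adjusted p was under 0.05, with a bar at each list's median. Nucleolar MYC targets and PRC1.6 partners hold no filled point, and the MYC/ZBTB17-repressed list holds 6 to the right of 0 and 1 to the left.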

How the data were processed

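Poly(A)-selected RNA-seq of 2 Control and 2 H2O2 samples of HCT116 was used. Tools named, without roles, by the submitters' processing notes are DESeq, HTSeq, STAR, Trim Galore, FastQC and CASAVA 1.8, with the build hg19. The annotation used and the handling of strand were not given in the sources used here. None of the deposited table's columns is for a single sample. Per the file headers, its means are a signal that the authors made by scaling counts with size factors and averaging each group. Its fold ratio, its log2 of that ratio and its p-values, raw and adjusted, are the authors' as deposited.

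Each group mean was solved for 2 whole counts (tolerance 1e-09); all 16376 genes had 1 solution per group, and the size factors equalled medians of ratios of the recovered counts to 4.44e-16. The count test was not run, since no column holds counts. The main test was the authors' (adjusted p under 0.05). limma 3.58.1 (R 4.3.3) with a mean-variance trend was fitted to log2(normalized count + 1) of all genes, a scale that understates changes of low genes; adjusted p-values are Benjamini-Hochberg over all genes. The recovery and the limma fit were tested on simulated data.

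The 10 limma fits are this one, pseudocounts of 0.5 and 5, genes of mean at least 10, equal library totals, each library left out, and a lowess length trend removed. Exonic lengths and overlaps came from GENCODE 29 (a build other than hg19), matched for 85.1% of genes. The only coordinates given are those of start-site windows, which came from RefSeq (GRCh38.p14, also not hg19). Members and lists were chosen with earlier results of these data known. Named genes are the members, MYCL, MLXIPL, up to 6 called genes of each list by adjusted p, and TXNIP, ARRDC4, CDKN1A, NCL, NPM1 and ODC1; CDKN2B, SNRNP27, HK2 and PFKFB3 were added after values were seen, and so were the PRC1.6 partners named. Some genes that this rule names are left out of the text.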

Additional observations from a re-analysis of the deposited data

How the results depend on the processing

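Of 100 values of the 10 genes under 10 alternatives to the authors' test, none changed direction, 22 fell short of the threshold that the authors' value had passed, and 2 (both of MYC) newly passed it. Of the 10 genes, 4 were called by the authors' test, 1 (MLXIP) at an adjusted p under 0.01, and 2 by limma with pseudocounts of 1, 0.5 or 5, with the filter on the mean and with equal library totals (MLXIP and MNT, both lower, in each). With the length trend removed the calls were also 2, but these were MXD1, higher, and MYC, lower. Leaving out 1 library gave 0 to 4 calls. The 0 came without either H2O2 library, where limma had 3 (without the deeper) and 4 (without the shallower) of the 10 at an unadjusted p under 0.05. Such a fit leaves a lone library in a group, which is assumed to vary like the other group.

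Over the whole table the authors' test called 1178 genes, and 642 at an adjusted p under 0.01. limma called 671, with pseudocounts of 0.5 and 5 663 and 685, with the filter 655, with equal totals 669 and with the length trend removed 714. Leaving out 1 library gave 284 to 3641 calls, the most without the shallower Control library. In the partner and target lists 21 genes were called, 11 higher and 10 lower, or 13 higher and 6 lower with the length trend removed, and 7 to 78 when 1 library was left out. These lists together hold 169 genes, and the authors' test called 7.19% of all listed genes. The lists were chosen with earlier results known, so the 21 calls do not test them. With the length trend removed, limma called 5.12% of all genes with a matched length. Calls in the lists, like those over the whole table, were fewest without the deeper H2O2 library. Both were most numerous without the shallower Control library. The causes were not tested. No paired analysis was possible because the recovered libraries carry no replicate number. At these depths MXD1 rests on 71 to 129 reads per library, the fewest of the 10 genes.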

Other observations

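The level of MYC relative to that of MAX, both as normalized counts per exonic kb, was 8.28 and 8.91 in the Control libraries and 5.96 and 6.64 in the H2O2 libraries, deeper first. The level of MLXIP relative to MLX was 0.695 and 0.600 in Control and 0.429 and 0.382 with H2O2. Both ratios were chosen after the values of the genes were seen and were not tested. No length trend was removed from them, and MLXIP (13.9 kb) is longer than MLX (4.26 kb), while MYC (3.001 kb) is shorter than MAX (4.43 kb). MLX shares exonic bases with PSMC3IP, and PSMC3IP was at 1.22 times its Control mean by the authors' deposited table (adjusted p = 0.239).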
